A study of Mus musculus with 9 samples.

Results

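Lyz1, Lyz2 and Gm42031 were taken by gene name from a table of FPKM values (fragment counts scaled by gene length and library depth) for 54532 genes, and all 3 were found once. Lyz2 and Gm42031 were chosen by their FPKM in these libraries, low in LILRB4+/+ and high in LILRB4+/+ SCG2-/- libraries, so their levels are described without a test, while Lyz1 joined them as the close relative of Lyz2 and was tested. The cells were monocytic myeloid-derived suppressor cells, monocyte-like cells of tumours that restrain T cells. They were sorted from MC38 tumours, which grow from a colon carcinoma line of mice. The 9 strand-specific poly-A libraries came from 3 genotypes with 3 libraries each: LILRB4+/+ SCG2-/- (SCG2 knockout libraries), LILRB4+/+ (LILRB4 libraries) and WT. SCG2 knockout and LILRB4 libraries share the LILRB4+/+ genotype, and all 3 groups share the tumour. The labels do not describe the LILRB4 allele, its promoter, the sorting gate, the age of the mice or which mouse gave which library, so p-values measure only the spread between these libraries, which may be technical. The study concerns the interaction of SCG2, a secreted granin protein, with the inhibitory receptor LILRB4. WT replicate 1 stood apart from the other WT libraries for Lyz2, Gm42031 and Lilrb4a, so log2 differences against WT are given with and without it.

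Lysozyme cleaves peptidoglycan, the polymer of bacterial cell walls. Mice carry a pair of adjacent lysozyme genes. Lyz2 encodes M lysozyme, made by macrophages, monocytes and neutrophils and stored in granules and lysosomes. Lyz1 encodes P lysozyme, known from Paneth cells of the small intestine. Lyz2 is also widely used to drive Cre in myeloid cells, and the labels do not say whether any of these mice carried such an allele. Gm42031 is annotated as a long intergenic noncoding RNA and has no role that could be stated here.

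On GRCm38 the lysozyme genes both lie on the minus strand of chromosome 10, Lyz2 (ENSMUSG00000069516) at chr10:117277331-117282321 and Lyz1 (ENSMUSG00000069515) at chr10:117287797-117292868, with 5475 bases between them and 4 exons each. Gm42031 (ENSMUSG00000110386) lies on the minus strand of another chromosome, at chr8:85125872-85132289, with 2 exons. No other gene of the table overlapped any of the 3. The coding parts of exon 1 are shown as a stretch in which reads of Lyz2 (chr10:117282107-117282242) and Lyz1 (chr10:117292703-117292838) can be told apart. Differences elsewhere can also assign a read, since the aligned whole transcripts held 51 mismatches and 55 gap positions. Capitals mark the 14 of 136 bases that differ.
Lyz2: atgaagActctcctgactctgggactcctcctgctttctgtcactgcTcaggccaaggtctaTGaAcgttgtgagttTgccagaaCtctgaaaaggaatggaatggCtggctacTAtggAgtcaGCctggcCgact
Lyz1: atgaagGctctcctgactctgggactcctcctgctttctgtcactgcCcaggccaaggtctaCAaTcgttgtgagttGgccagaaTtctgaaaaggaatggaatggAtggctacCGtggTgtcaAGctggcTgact
Over the whole coding sequence of 444 bases they differ at 22 positions, an identity of 95.05%, and the longest stretch without a difference is 118 bases. Of all 50-base windows of the Lyz2 transcript 15.4% occur unchanged in Lyz1, and of 100-base windows 1.97%, while no 150-base window does. No other gene's transcript held a 50-base window of either. Of the Gm42031 transcript's 50-base windows 60.4% occur in transcripts of 16 other genes, and of its 100-base windows 23.2% occur in 7 other genes, of which Gm43305 holds 355 windows. The sources used here give neither the read length nor how reads with several matches were handled, so the levels of all 3 genes carry that uncertainty.

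The starts of the genes are shown because Lyz2 and Gm42031 had like patterns across libraries and Lyz1 had another. The sequences are the 250 bases before each RefSeq start (GRCm38.p6, minus strand), at chr10:117282273-117282522 for Lyz2, chr10:117292869-117293118 for Lyz1 and chr8:85131815-85132064 for Gm42031. In the lysozyme genes capitals mark the longest identical stretch, 50 bases that end at the start, and in Gm42031 a TATAAA box that begins 27 bases before the start.
Lyz2: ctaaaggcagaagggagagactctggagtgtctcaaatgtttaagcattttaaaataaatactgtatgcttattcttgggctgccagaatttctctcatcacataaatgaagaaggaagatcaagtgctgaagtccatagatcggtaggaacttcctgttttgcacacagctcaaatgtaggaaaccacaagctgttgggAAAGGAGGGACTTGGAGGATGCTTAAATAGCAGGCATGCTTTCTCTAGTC
Lyz1: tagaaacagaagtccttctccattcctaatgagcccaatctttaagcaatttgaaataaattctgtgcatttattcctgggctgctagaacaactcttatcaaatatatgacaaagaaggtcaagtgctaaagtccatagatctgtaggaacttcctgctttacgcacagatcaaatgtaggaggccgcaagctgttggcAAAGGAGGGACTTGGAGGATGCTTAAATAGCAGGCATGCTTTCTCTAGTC
Gm42031: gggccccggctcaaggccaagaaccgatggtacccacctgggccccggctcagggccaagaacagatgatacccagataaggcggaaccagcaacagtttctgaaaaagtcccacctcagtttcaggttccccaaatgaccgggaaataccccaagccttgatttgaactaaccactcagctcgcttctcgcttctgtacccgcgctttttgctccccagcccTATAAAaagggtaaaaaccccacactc
The Lyz2 and Lyz1 stretches were 79.4% identical over their alignment, with 48 mismatches and 4 gap positions. Aligned with either of them, Gm42031 had no identical run longer than 7 bases. AGGAAGT, the core bound by PU.1 and other ETS factors, was searched on both strands and begins 100 bases before the start in Lyz2 and in Lyz1, and 7.69% of all 32851 promoter windows of this length hold it. TGTGGT, the RUNX core, was found in Lyz2 only of the 3 genes, and 14.1% of windows hold it. TTGCNNAA, a form of the C/EBP site, was found in Lyz1 only of the 3, and 9.56% of windows hold it. TATAAA was found in Gm42031 only of the 3, and 12.4% of windows hold it. None of these motifs overlapped another in these windows. GENCODE M21 places the start of Lyz2 49 bases and that of Gm42031 475 bases further upstream, so the Gm42031 window lies inside its annotated exon 1.

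Lyz2 was higher in SCG2 knockout libraries than in all others. Its level was 849, 342 and 252 FPKM in SCG2 knockout replicates 1 to 3. In LILRB4 libraries it was 11.4, 18.6 and 16.6 FPKM. In WT libraries it was 11.8, 79.1 and 109 FPKM. WT replicate 1 lay among the LILRB4 libraries while WT replicates 2 and 3 lay above them. Averages were 481 ± 322 FPKM in SCG2 knockout, 15.6 ± 3.72 in LILRB4 and 66.6 ± 49.7 in WT libraries (SD, n = 3 each). SCG2 knockout and LILRB4 means differed 30.9-fold, and the lowest SCG2 knockout library stood 13.5-fold above the highest LILRB4 library. In bulk libraries fewer cells of a type and less RNA per cell cannot be told apart.

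Among 13457 protein-coding genes with a mean of 0.1 FPKM or more, Lyz2 ranked 40th, 117th and 137th by level in SCG2 knockout replicates 1 to 3. It ranked 4131st, 2765th and 3037th in LILRB4 replicates and 3866th, 670th and 398th in WT replicates. The gene for M lysozyme was thus among the most abundant transcripts in SCG2 knockout libraries and not in LILRB4 libraries or WT replicate 1.

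Gm42031 had the same order of groups at lower levels. Its level was 23.6, 38.5 and 50.4 FPKM in SCG2 knockout replicates 1 to 3. In LILRB4 libraries it was 0.258, 0.0894 and 0.220 FPKM. In WT libraries it was 0.247, 3.97 and 5.83 FPKM. SCG2 knockout libraries again stood apart from all others, and WT replicate 1 again lay among the LILRB4 libraries. These FPKM correspond to 815, 1243 and 1558 reads in SCG2 knockout libraries, 8, 4 and 11 reads in LILRB4 libraries and 10, 180 and 226 reads in WT libraries, so the low values rest on few reads. The means of 37.5 ± 13.4 FPKM in SCG2 knockout and 0.189 ± 0.0886 FPKM in LILRB4 libraries (SD, n = 3 each) differed 198-fold, and WT libraries averaged 3.35 ± 2.84 FPKM (SD, n = 3). The lowest SCG2 knockout library lay 91.6-fold above the highest LILRB4 library.

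Lyz1 had another order. It stood at 16.6, 12.3 and 15.4 FPKM in SCG2 knockout replicates 1 to 3. In LILRB4 libraries it stood at 18.5, 35.4 and 17.7 FPKM. In WT libraries it stood at 26.0, 69.7 and 41.7 FPKM. SCG2 knockout libraries were the lowest, below all LILRB4 and all WT libraries, while LILRB4 and WT libraries overlapped. Among the same protein-coding genes Lyz1 ranked between 2984th and 3830th in SCG2 knockout, between 1486th and 2866th in LILRB4 and between 765th and 1806th in WT libraries. Averages were 14.8 ± 2.22 FPKM in SCG2 knockout, 23.9 ± 9.99 in LILRB4 and 45.8 ± 22.1 in WT libraries (SD, n = 3 each).

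**Figure D1:**
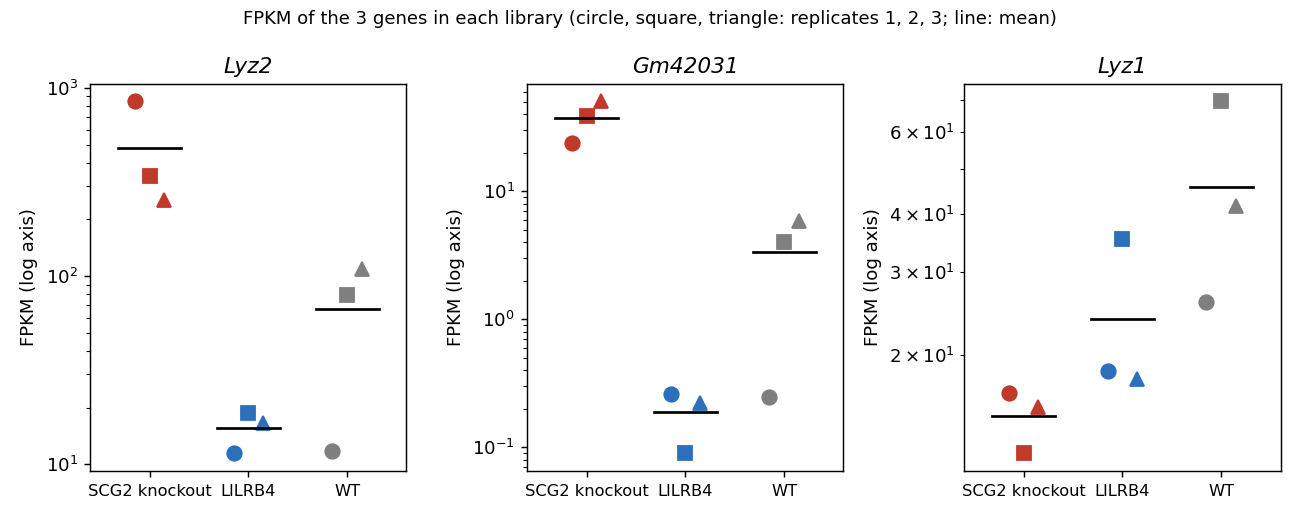
FPKM of Lyz2, Gm42031 and Lyz1 on log axes, with 1 point per library (circle, square and triangle for replicates 1, 2 and 3) and a line at the mean of the 3 libraries of a group. Lyz2 and Gm42031 are highest in the 3 SCG2 knockout libraries, WT replicate 1 sits with the LILRB4 libraries at 11.8 FPKM for Lyz2 and 0.247 FPKM for Gm42031, and Lyz1 is lowest in SCG2 knockout libraries.

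Comparing SCG2 knockout with LILRB4 libraries addresses the absence of SCG2 where the LILRB4 genotype is shared. On the scale of log2(FPKM + 1) the difference was 4.69 for Lyz2 and 4.96 for Gm42031, and these were the values used to pick them. Ordered by this difference among 18904 genes with a mean of 0.1 FPKM or more, Gm42031 came first and Lyz2 came second. The next 4 genes were immunoglobulin variable segments, from Ighv14-1 at 2.69 to Ighv3-4 at 2.35. All SCG2 knockout libraries lay above all LILRB4 libraries for 6.09% of genes, a share to set beside these genes but not to be read further, because the contrast chose them.

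Lyz1 differed by -0.60 on the log2(FPKM + 1) scale in the same comparison (SE 0.36, 95% interval -1.42 to 0.23) and did not pass the test (limma adjusted p = 0.708). Its SCG2 knockout libraries all lay below its LILRB4 libraries, which held for 7.93% of genes. No gene passed in this comparison (0% of 18904 genes by limma), while an unadjusted p under 0.05 was reached by 536 genes on the higher side and 1012 on the lower, together 8.19% of genes. edgeR on reads recovered from FPKM called 0 genes higher and 0 lower, and DESeq2 called 15 higher and 124 lower, Lyz1 not among them (DESeq2 adjusted p = 0.548).

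Comparing LILRB4 with WT libraries addresses the LILRB4+/+ genotype itself. The log2(FPKM + 1) difference was -1.57 for Lyz2 and -1.55 for Gm42031, and it rested on which WT libraries were counted. Without WT replicate 1 these were -2.53 and -2.29. That library had Lyz2 at 11.8 FPKM beside 79.1 and 109 FPKM in the other WT libraries. The same library was highest of the WT libraries for Lilrb4a and Lilr4b, related mouse genes of the LILRB4 receptor type whose reads the counting could split between them. Lilrb4a stood at 274, 154 and 160 FPKM in LILRB4 replicates 1 to 3 and at 138, 47.7 and 74.0 FPKM in WT replicates 1 to 3, and its SCG2 knockout libraries held 131 to 157 FPKM. Lilr4b stood at 640, 327 and 450 FPKM in LILRB4 replicates and at 289, 137 and 149 FPKM in WT replicates. Its SCG2 knockout libraries held 345 to 359 FPKM. Against SCG2 knockout libraries, WT replicate 1 lay within their range for Lilrb4a and below it for Lilr4b. WT replicate 1 thus lay below all LILRB4 libraries for both receptor genes, nearer to them than the other WT libraries did, and the part of this in the lysozyme values was not tested. Lyz1 differed by -0.87 (SE 0.36, 95% interval -1.70 to -0.05) and did not pass (limma adjusted p = 0.299), and limma called 0.101% of genes, while 15.5% reached an unadjusted p under 0.05. Without WT replicate 1 the Lyz1 difference was -1.21 (limma adjusted p = 0.183). The lowest adjusted p of Lyz1 among the other settings was 0.0820, by DESeq2.

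The remaining comparison set SCG2 knockout against WT, which differ in both LILRB4 and SCG2 genotype. The log2(FPKM + 1) difference was 3.12 for Lyz2 and 3.40 for Gm42031, or 2.16 and 2.66 without WT replicate 1. The lowest SCG2 knockout library stood 2.32-fold above the highest WT library for Lyz2 and 4.06-fold above it for Gm42031, and 10.5% of genes had all SCG2 knockout libraries above all WT libraries. Lyz1 had its widest difference here, at -1.47 (SE 0.36, 95% interval -2.29 to -0.64), with all SCG2 knockout libraries below all WT libraries, as for 9.25% of genes. It did not pass with limma (unadjusted p = 0.00312, limma adjusted p = 0.427), where 0% of genes were called and 1219 higher and 964 lower genes reached an unadjusted p under 0.05, 11.5% of all. Without WT replicate 1 the Lyz1 difference was -1.81 (limma adjusted p = 0.266). Lyz1 passed with DESeq2 on recovered reads (log2 -1.63, DESeq2 adjusted p = 0.00295), which called 90 genes higher and 32 lower. edgeR on the same reads called 0 genes higher and 0 lower and gave Lyz1 an edgeR adjusted p of 0.339.

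The ratio between the lysozyme genes was taken within each library, so scaling between libraries does not enter it. Lyz2 stood at 51.2, 27.8 and 16.3 times the FPKM of Lyz1 in SCG2 knockout replicates 1 to 3. In LILRB4 libraries the ratio was 0.619, 0.526 and 0.937. In WT libraries it was 0.455, 1.14 and 2.61. Lyz1 therefore exceeded Lyz2 in all LILRB4 libraries and in WT replicate 1, and the Lyz2 share of the summed FPKM ran from 94.2% to 98.1% in SCG2 knockout, from 34.5% to 48.4% in LILRB4 and from 31.3% to 72.3% in WT libraries. The sum itself was 268 to 866 FPKM in SCG2 knockout, 29.9 to 54.0 in LILRB4 and 37.7 to 150 in WT libraries.

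Lyz2 and Gm42031 had the same order of groups, and opposite orders within SCG2 knockout and within LILRB4 libraries. Among LILRB4 libraries Lyz2 was highest in replicate 2 and Gm42031 in replicate 1, the latter gene on 4 to 11 reads. Only among WT libraries did both genes run in the same order. On log2(FPKM + 1) over the 9 libraries their Pearson correlation was 0.94 and their Spearman correlation 0.77, and Pearson's was 0.93 without WT replicate 1. The points share groups, library scaling and the choice of the pair, so no p is given. Among SCG2 knockout libraries the order of Lyz2 (replicate 1 highest, then 2, then 3) was the reverse of the order of Gm42031, and the ratio of Lyz2 to Gm42031 FPKM was 35.9, 8.89 and 5.01. The ratio was 44.2, 208 and 75.4 in LILRB4 libraries and 47.7, 19.9 and 18.7 in WT libraries, so it was not constant. Lyz1 correlated with Lyz2 at -0.26 and with Gm42031 at -0.38 over the 9 libraries. Deviations from the group means over the 9 libraries correlated at 0.61 for Lyz2 with Gm42031, at 0.64 for Lyz1 with Lyz2 and at 0.45 for Lyz1 with Gm42031. The 0.61 came from WT libraries, where replicate 1 was lowest for both genes, at 11.8 FPKM for Lyz2 and 0.247 FPKM for Gm42031. In SCG2 knockout and in LILRB4 libraries these 2 genes ran in opposite orders. The correlation of deviations was not computed without WT replicate 1.

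**Figure D2:**
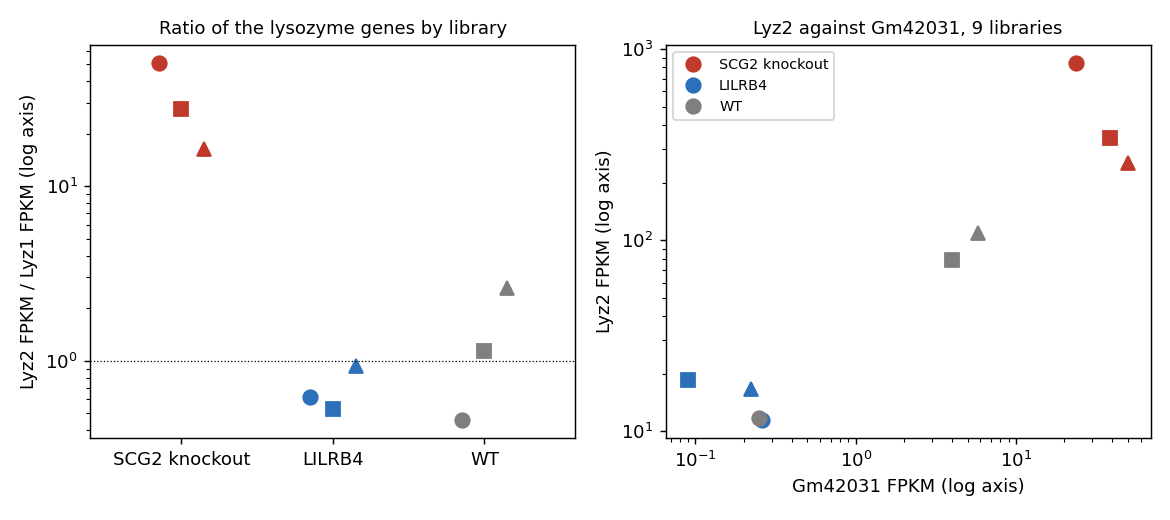
The left plot shows the ratio of Lyz2 to Lyz1 FPKM in each library on a log axis, with a dotted line at equal levels, and the right plot shows Lyz2 against Gm42031 FPKM on log axes (circle, square and triangle for replicates 1, 2 and 3). The ratio is 16.3 or more in SCG2 knockout libraries and below 1 in LILRB4 libraries and WT replicate 1. Both Lyz2 and Gm42031 are highest in SCG2 knockout libraries, and they run in opposite order among SCG2 knockout and among LILRB4 libraries.

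Among 12425 genes with a mean of 1 FPKM or more, those most like Lyz2 over the 9 libraries were Lnpk, which encodes an endoplasmic reticulum junction protein (Pearson 0.96), the immunoglobulin segment Ighv2-9-1 (0.95) and Gm42031 itself. Csgalnact1, Nppb, Selenoi and Tbx15 were also among the 10 most alike, at 0.90 to 0.86. These correlations share libraries and scaling and carry no p, and likeness of pattern did not mean likeness in size. Lnpk averaged 2.68 FPKM in SCG2 knockout, 2.08 in LILRB4 and 2.31 in WT libraries, and Nppb, which encodes a natriuretic peptide, averaged 54.3 FPKM in SCG2 knockout, 27.1 in LILRB4 and 41.7 in WT libraries. The 5 genes most like Gm42031 were Ighv2-9-1, Lnpk, Lyz2, Rapgef3 and Nppb, at 0.96 to 0.88. Most like Lyz1 were Mlf2, Prkra, Tnfrsf1a (a TNF receptor), Tnfaip1 and Pcyox1l, at 0.97 to 0.96. Tnfrsf1a averaged 35.7 FPKM in SCG2 knockout, 51.0 in LILRB4 and 63.7 in WT libraries.

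No gene around the 3 loci passed the test, and few or no genes of the whole table did. Limma called 0% of all genes in SCG2 knockout against LILRB4, 0.101% in LILRB4 against WT and 0% in SCG2 knockout against WT. The counts of 0 called are therefore not particular to these neighbours. Of 31 other genes within 500 kb of Lyz2, 12 reached a mean of 0.1 FPKM and were tested, with 0 called in each of the 3 comparisons by limma, and 0 by edgeR, which tested 10. In SCG2 knockout against LILRB4 their log2 differences ran from -0.38 to 0.10 with a median of -0.10, beside 0.00 over all genes, and 1 of the 12 had an unadjusted p under 0.05, beside 8.19% of all genes. Gm10936, the nearest gene below Lyz2, is a pseudogene listed at 0. Cpsf6, the nearest above Lyz1 and a gene of mRNA 3' end processing, averaged 9.75 ± 0.424 FPKM in SCG2 knockout, 10.4 ± 0.561 in LILRB4 and 9.50 ± 0.563 in WT libraries (SD, n = 3 each). The lowest p near the lysozyme genes was that of Mdm2, which encodes the ubiquitin ligase of p53, singled out after its values were seen. It averaged 58.3 ± 4.45 FPKM in LILRB4 and 34.3 ± 3.68 FPKM in WT libraries (SD, n = 3 each; log2 0.75, SE 0.14, limma adjusted p = 0.0852).

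Of 58 genes within 500 kb of Gm42031, 39 were tested with 0 called in each comparison by limma, beside 0% to 0.101% of all genes. Of these neighbours edgeR tested 34 and called 0. In SCG2 knockout against LILRB4 their log2 differences ran from -0.45 to 0.62 with a median of -0.01, and 3 of the 39 had an unadjusted p under 0.05, beside 8.19% of all genes. The nearest genes were hardly detected, with Zfp791 at a mean of 0.0654 FPKM and the pseudogene Gm45316 at 0.0836 FPKM. The nearest tested gene below it was Man2b1, which encodes lysosomal alpha-mannosidase, at 26.9 ± 3.90 FPKM in SCG2 knockout, 35.0 ± 14.1 in LILRB4 and 30.6 ± 3.48 in WT libraries (SD, n = 3 each). Gm43305, the gene that shares most sequence with Gm42031, stood at 8.18 to 10.7 FPKM in SCG2 knockout, 2.68 to 13.03 in LILRB4 and 1.501 to 5.71 in WT libraries, so its SCG2 knockout libraries overlapped its LILRB4 libraries.

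**Figure D3:**
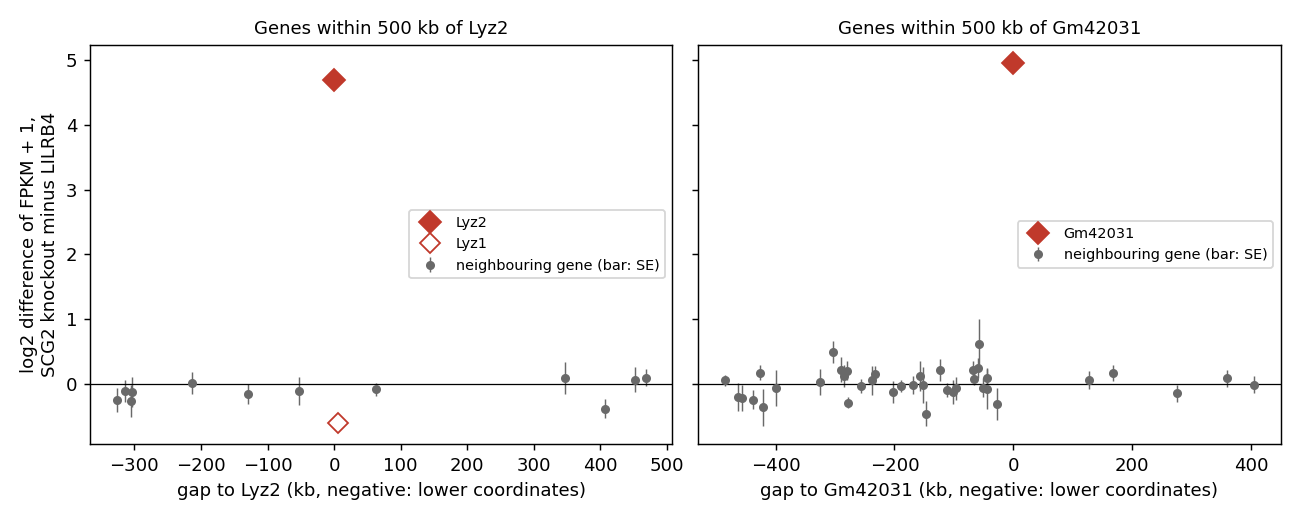
Log2 difference of FPKM + 1, SCG2 knockout minus LILRB4, for tested genes within 500 kb of Lyz2 (left) and of Gm42031 (right), by the gap in kb, with the standard error as a bar. Lyz2 is at 4.69 and Gm42031 at 4.96, both picked for this difference, so their place above their neighbours was fixed beforehand. The neighbours lie between -0.45 and 0.62, and the adjacent Lyz1 (open diamond) is at -0.60.

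The rest of the lysozyme family was at or near 0 reads. Of the lysozyme-like genes Lyzl1, Lyzl4, Lyzl6, Spaca3 and Spaca5, the related milk protein gene Lalba and the goose-type lysozyme genes Lyg1 and Lyg2, none reached a mean of 0.1 FPKM. Lyzl1, Spaca3, Lyg1 and Lyg2 had 0 reads in all 9 libraries, and the largest number of reads in any library was 9, for Lyzl4. A count of 0 allows up to 3 reads, which is 0.107 to 0.200 CPM depending on the library, for counting error alone.

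Genes that sense or carry bacterial wall fragments were also read. Of 22 listed genes 19 were tested, with 0 called in each comparison by limma and 1 in all by edgeR. Limma called 0% of all genes in both comparisons with SCG2 knockout and 0.101% in LILRB4 against WT. Its counts of 0 are therefore not particular to this list. In SCG2 knockout against LILRB4 16 of 19 differences were negative, beside 49.3% of all genes, with a median of -0.32 beside 0.00 over all genes. An unadjusted p under 0.05 was found for 6 of the 19, beside 8.19% of all genes. Cd14, the co-receptor for bacterial products, averaged 1157 ± 358 FPKM in SCG2 knockout and 2274 ± 396 FPKM in LILRB4 libraries (SD, n = 3 each; log2 -1.01, SE 0.39, limma adjusted p = 0.571). Tlr2, the receptor for bacterial lipoproteins, averaged 100.1 ± 34.4 FPKM in SCG2 knockout and 205 ± 129 FPKM in LILRB4 libraries (SD, n = 3 each). The inflammasome sensor gene Nlrp3 averaged 105 ± 19.5 FPKM in SCG2 knockout and 166 ± 52.3 FPKM in LILRB4 libraries (SD, n = 3 each). Slc15a3, which carries muramyl dipeptide out of lysosomes, averaged 90.7 ± 20.1 FPKM in SCG2 knockout and 130 ± 2.19 FPKM in LILRB4 libraries (SD, n = 3 each). In LILRB4 against WT the median was 0.19 beside 0.01 over all genes, with 5 of 19 at an unadjusted p under 0.05, beside 15.5% of all genes. There edgeR called Ripk2, the kinase downstream of the peptidoglycan sensors NOD1 and NOD2 (log2 0.91, edgeR adjusted p = 0.0255), which limma did not (log2 0.89, SE 0.14, limma adjusted p = 0.0542).

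Lysosomal proteins, the company in which lysozyme is stored, had 0 of 35 called in each comparison by limma and by edgeR. Limma called 0% to 0.101% of all genes in these comparisons. In SCG2 knockout against LILRB4 29 of 35 differences were negative, beside 49.3% of all genes, with a median of -0.34 beside 0.00 over all genes. An unadjusted p under 0.05 was found for 7 of the 35, beside 8.19% of all genes. The most abundant were Psap, which encodes the sphingolipid activator precursor, and the cathepsin genes Ctss and Ctsz, followed by the membrane protein gene Lamp1. Psap averaged 704 ± 220 FPKM in SCG2 knockout and 915 ± 239 FPKM in LILRB4 libraries, and Ctss averaged 465 ± 149 FPKM in SCG2 knockout and 729 ± 249.3 FPKM in LILRB4 libraries (SD, n = 3 each). Ctsz averaged 340 ± 102 FPKM in SCG2 knockout and 465 ± 53.0 FPKM in LILRB4 libraries, and Lamp1 averaged 160 ± 6.12 FPKM in SCG2 knockout and 206 ± 42.8 FPKM in LILRB4 libraries. None of the 4 passed the test, with limma adjusted p = 0.759 for Psap, 0.670 for Ctss, 0.656 for Ctsz and 0.699 for Lamp1.

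Transcription factors known from the lysozyme locus or the myeloid lineage had 0 of 21 called in each comparison by limma and by edgeR. Limma called 0% to 0.101% of all genes in these comparisons. It gave 2 of the 21 an unadjusted p under 0.05 in each. That count is to be read beside 8.19% of all genes in SCG2 knockout against LILRB4, 15.5% in LILRB4 against WT and 11.5% in SCG2 knockout against WT. The median difference of these factors in SCG2 knockout against LILRB4 was -0.04. Cebpb, a C/EBP factor of activated macrophages, averaged 307 ± 180 FPKM in SCG2 knockout and 477 ± 117 FPKM in LILRB4 libraries (SD, n = 3 each; log2 -0.76, SE 0.40, limma adjusted p = 0.664). The AP-1 genes Jun and Fos averaged 511 ± 63.7 and 342 ± 63.3 FPKM in SCG2 knockout, against 368 ± 94.6 and 270 ± 60.3 FPKM in LILRB4 libraries. Klf4, a factor of monocyte differentiation, averaged 292 ± 66.0 FPKM in SCG2 knockout and 226 ± 12.02 FPKM in LILRB4 libraries.

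The labelled cell type was checked with its markers. Itgam, which encodes CD11b, and Ly6c2, which encodes the Ly6C antigen, were present in all libraries, Itgam at 18.1 to 36.5 FPKM in SCG2 knockout, 39.3 to 79.1 in LILRB4 and 29.5 to 54.1 in WT libraries, and Ly6c2 at 28.6 to 37.5 FPKM in SCG2 knockout, 46.8 to 51.3 in LILRB4 and 36.7 to 105 in WT libraries. Ly6g, the marker of granulocytic cells, was listed at 0 in 7 of 9 libraries and reached at most 0.198 FPKM. Summed levels of the 12 monocyte markers came mostly from Cd14. They were 1058 to 1997 FPKM in SCG2 knockout, 2459 to 3712 in LILRB4 and 1361 to 3546 in WT libraries. On the log2 scale 12 of 12 were lower on average in SCG2 knockout than in LILRB4 libraries, beside 49.3% of all genes, with 0 called by limma and 0 by edgeR and 7 at an unadjusted p under 0.05, beside 8.19% of all genes. The 12 macrophage markers summed to 702 to 1468 FPKM in SCG2 knockout, 963 to 1910 in LILRB4 and 1065 to 1526 in WT libraries. The 14 neutrophil markers summed to 34.9 to 50.3 FPKM in SCG2 knockout, where Camp was listed at 0, to 78.7 to 228 in LILRB4, where Ly6g was listed at 0, and to 40.5 to 78.0 in WT libraries. None of these 3 lists was higher on average in SCG2 knockout than in LILRB4 libraries. Lyz2 was higher there, but it was chosen for that, so setting it beside these lists is not to be read further. Among SCG2 knockout libraries the order of Lyz2 was that of the monocyte, macrophage, neutrophil and epithelial sums, with replicate 1 highest and replicate 3 lowest in each. Among LILRB4 libraries Lyz2 ran in the order of the monocyte, macrophage and neutrophil sums, with replicate 2 highest and replicate 1 lowest. The epithelial sum did not follow that order. Among WT libraries Lyz2 ran in the order of none of these sums. The epithelial sum was mostly Cdh1.

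Lymphocyte markers varied widely between libraries. The 15 T and NK cell markers summed to 317 to 549 FPKM in SCG2 knockout, 87.3 to 543 in LILRB4 and 92.4 to 329 in WT libraries. The 6 B cell markers summed to 119 to 529 FPKM in SCG2 knockout, 14.8 to 390 in LILRB4 and 37.0 to 272 in WT libraries. The B cell sum was mostly Ighm. WT replicate 1, the library low in Lyz2 and Gm42031, was the highest WT library on both sums. The monocyte sum was mostly Cd14. On it WT replicate 1 was the lowest WT library, at 1361 FPKM beside 3546 and 2173 FPKM in WT replicates 2 and 3. On the macrophage sum it lay between them, at 1118 FPKM beside 1526 and 1065 FPKM. LILRB4 replicate 2 was the lowest LILRB4 library on both lymphocyte sums, at 87.3 and 14.8 FPKM. It had the highest Lyz2 of the LILRB4 libraries, at 18.6 FPKM, and the lowest Gm42031, at 0.0894 FPKM. The part of cell composition in the lysozyme values was not tested.

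Markers of epithelial cells, Paneth cells included, and of stromal and dendritic cells were also read. Of 10 intestinal epithelial markers 4 were tested with 0 called in each comparison by limma and by edgeR, and the Paneth cell defensin gene Defa24 and the intestinal factor gene Cdx2 were listed at 0 in all libraries. Their sums were 19.0 to 34.1 FPKM in SCG2 knockout, 20.1 to 44.6 in LILRB4 and 21.9 to 27.3 in WT libraries. The 8 fibroblast markers summed to 230 to 316 FPKM in SCG2 knockout, 174 to 240 in LILRB4 and 212 to 298 in WT libraries, and the 6 endothelial markers to 8.31 to 10.1 FPKM in SCG2 knockout, 7.26 to 15.9 in LILRB4 and 5.18 to 7.50 in WT libraries. The 8 dendritic cell markers summed to 132 to 194 FPKM in SCG2 knockout, 82.1 to 192 in LILRB4 and 85.3 to 121 in WT libraries. Of all marker genes limma called 0 in each comparison, beside 0% to 0.101% of all genes. Of these markers edgeR called Xcr1, a receptor gene of cross-presenting dendritic cells, in LILRB4 against WT (log2 1.70, edgeR adjusted p = 0.0320).

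**Figure D4:**
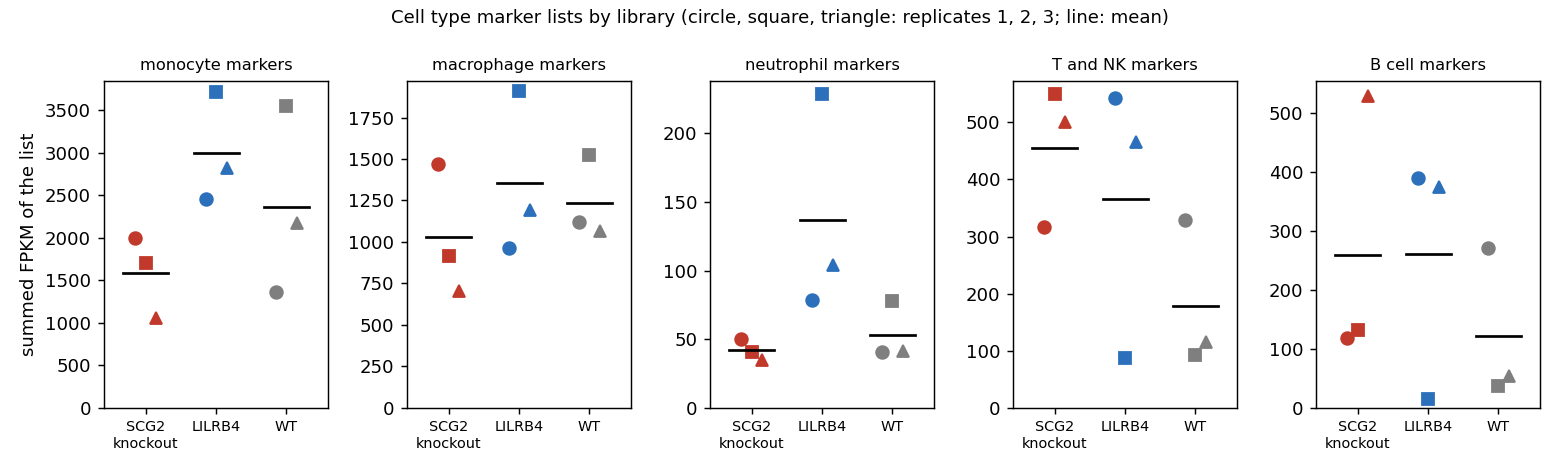
Summed FPKM of 5 marker lists in each library (circle, square and triangle for replicates 1, 2 and 3, line for the mean of 3). Monocyte, macrophage and neutrophil sums are on average lowest in SCG2 knockout libraries, where Lyz2, chosen for being high there, is highest. The lymphocyte sums vary within each group, with LILRB4 replicate 2 lowest at 87.3 and 14.8 FPKM.

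The total number of reads recovered was 15004944 to 28070495 per library. Scg2 itself had 1 read in LILRB4 replicate 1 and 1 read in WT replicate 1 and 0 reads in the other 7 libraries, so the knockout could not be checked in these cells.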

How the data were processed

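Sorted tumour M-MDSCs gave stranded poly-A libraries, per the labels' protocols. HISAT2 2.0.5 and featureCounts 1.5.0-p3 are named in the submitters' processing notes; the sources used here name no build, annotation or counting option. The authors deposited FPKM for 54532 genes and raw counts for 9877. Coordinates equalled GENCODE M21 (GRCm38) for 98.3% of 54409 identifiers. FPKM times listed gene length and a constant per library gave whole reads for 100% of values (tolerance 0.01), called recovered reads; the 18 Lyz1 and Lyz2 values equal the deposited counts. Genes with a mean FPKM of 0.1 or more were tested on log2(FPKM + 1), which understates changes of low genes, with limma 3.58.1 (trend, robust, 6 residual degrees of freedom, Benjamini-Hochberg over 18904 genes, threshold 0.05). Alternatives used edgeR 4.0.16 and DESeq2 1.42.0 in R 4.3.3. The limma fit was tested on simulated reads. Sequence work used Biopython 1.88. Members, gene lists and marker lists were chosen with earlier results of these data known. Named genes were the members, overlapping, nearest or called genes within 500 kb, the 10 or 5 most alike, and called or the 4 most abundant members of each list; some of these genes are not reported here. At most 1.47% of expressed genes had equal reads in any pair of a group, so no library was counted as a duplicate.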

Additional observations from a re-analysis of the deposited data

How the results depend on the processing

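Lyz2 and Gm42031 kept the direction of every difference under all alternatives run, and so did Lyz1. Leaving out each library gave 4.18 to 5.05 for Lyz2 and 4.72 to 5.25 for Gm42031 in SCG2 knockout against LILRB4, -2.53 to -0.98 and -2.29 to -1.07 in LILRB4 against WT, and 2.16 to 3.71 and 2.66 to 3.89 in SCG2 knockout against WT. Gm42031 depends on the treatment of low values, since LILRB4 libraries held 4 to 11 reads. Its SCG2 knockout to LILRB4 difference was 7.01 with a pseudocount of 0.1, 7.665 with edgeR and 7.64 with DESeq2 on recovered reads, and its LILRB4 to WT difference -2.86, -4.17 and -4.15. Lyz1 ranged from -0.76 to -0.29, from -1.21 to -0.52 and from -1.81 to -1.11 in the same 3 comparisons without single libraries. It passed under 1 setting, DESeq2 in SCG2 knockout against WT, at -1.63; adjusted p over the settings was 0.541 to 0.901, 0.0820 to 0.687 and 0.00295 to 0.855.

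Counts of called genes moved. In LILRB4 against WT limma called 19 higher and 0 lower. Other settings gave 42 and 1 with a pseudocount of 0.1, 91 and 11 from a mean FPKM of 1, 128 and 9 with edgeR on recovered reads, 171 and 51 with edgeR on the deposited counts (for these counts and Lyz1 chosen after seeing the data), and 572 and 216 with DESeq2. They gave 0 higher without a filter, with FPKM rescaled to one sum, with the 6 libraries alone and with the replicate block. Without single libraries the counts were 0 to 91 higher and 0 to 5 lower, the highest without LILRB4 replicate 2. In SCG2 knockout against LILRB4, where limma called 0, DESeq2 called 15 and 124, the pseudocount of 0.1 gave 2 lower, the 6 libraries alone gave 1 higher, and leaving out single libraries gave 0 to 2 higher and 0 to 17 lower. In SCG2 knockout against WT DESeq2 called 90 and 32, and single libraries left out gave 0 to 2 higher and 0 lower. The cause of these differences was not tested.

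Whether replicate numbers pair libraries could not be settled from these values. Deviations of same-numbered libraries correlated between -0.42 and 0.53, and those of other-numbered libraries between -0.58 and 0.37. In LILRB4 against WT replicates 1, 2 and 3 correlated with the same number at 0.53, 0.49 and -0.29. With the replicate block Lyz1 stood at -0.60, -0.87 and -1.47 and did not pass (limma adjusted p = 0.689, 0.306 and 0.387).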
